A study of Mus musculus with 20 samples.

Results

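Christensenellales is an order of gut bacteria in the class Clostridia, and it was followed here through all 20 samples of a fecal 16S rRNA gene survey of control and chemotherapy-treated mice. Its members were taken as every family, genus and species entry that the count tables place under the order and that had at least 1 read, the entry with no family assigned included. This gave 8 of 8 family entries, 10 of 11 genus entries and 10 of 12 species entries, out of 45, 149 and 204 entries with a read over the whole series. The same 15464 reads were counted at each rank, and 6 family, 7 genus and 7 species entries held 100 reads or more.

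Christensenellales are strict anaerobes that live by fermentation in the gut. The family that gave the order its name, Christensenellaceae, is known from human studies as a heritable member of the gut community that is more abundant in lean people. Most other families of the order carry placeholder names such as CAG-314, CAG-552, CAG-917 or UBA1242, because they were described from genomes assembled out of sequence data and not from cultured strains.

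Stool was taken from C57BL/6 mice of both groups on day 5 after treatment. Chemotherapy, termed FO, was oxaliplatin at 3.5 mg/kg followed by 5-fluorouracil at 50 mg/kg, with 2 doses of 5-fluorouracil given on successive days. Control mice were given vehicle on the same schedule. The labels give it as PBS or water without naming the mice, and the text of the study names PBS for the stool samples. The mice were females aged 8 to 14 weeks that had been co-housed for at least 10 days, and 1 pellet per mouse was used. Both groups had 10 samples, 5 from each of the batches E53B and E56A. Cages are not given in the labels, so an effect of the cage and one of the treatment cannot be told apart. Replicate numbers only name samples.

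Sequencing gave 17218 reads for FO replicate 6, the shallowest sample, and 57415 for control replicate 2, the deepest, and the median was 45187 for control and 50102 for FO samples. Christensenellales itself had between 236 reads, in FO replicate 6, and 1889 reads, in FO replicate 8. With 0 reads, an entry could still make up between 0.00523% and 0.0174% of a sample, the share that 3 reads would give. Because amplification copies molecules, these limits and the 95% Wilson intervals given further on account for counting error alone. No 2 samples of a group were alike within counting noise, the lowest chi-square per degree of freedom among 90 pairs being 6.51. In genus composition 2 of 20 samples, control replicate 1 and FO replicate 5, both of batch E56A, were closer to the other group than to their own. Their mean Bray-Curtis dissimilarity, a distance from 0 to 1, was 0.277 to their own and 0.270 to the other group for control replicate 1, and 0.303 and 0.163 for FO replicate 5. They were kept under their labels, and without both the order's share differed by 1.56 percentage points and its log2 ratio to Bacteroidales by 1.70. Shares add up to a fixed total, so more Christensenellales and fewer other bacteria cannot be told apart from them.

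To determine what the order consisted of, each family was set against the order's own reads. Borkfalkiaceae held most of them, with a mean of 72.7% over the 20 samples, and it was the most abundant family in every sample. CAG-314 followed at 12.2%, CAG-552 at 7.27% and the reads with no family assigned at 5.81%. The other 4 families were rare, at 0.918% for CAG-917, 0.825% for UBA1242, 0.105% for CAG-74 and 0.0847% for Christensenellaceae. The ranking below Borkfalkiaceae was not fixed, as CAG-314 had more reads than CAG-552 in 8 of 10 samples of either group. The reads with no family assigned outnumbered CAG-552 in 2 of 10 control and 7 of 10 FO samples. They outnumbered CAG-314 in 1 of 10 control and 6 of 10 FO samples.

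Naming stopped early for most of the order. At the genus rank, Borkfalkiaceae split into the genus Borkfalkia, with 10833 reads, and an entry with no genus name, with 769 reads. The families CAG-552 and Christensenellaceae had no genus name at all, and every read of CAG-314 lay in a genus of the same name. All reads of CAG-917 belonged to the genus CAG-475 and its species entry CAG-475 sp900548005. A species name reached 14.4% of the order's reads of control and 8.61% of those of FO samples, and almost all of these were CAG-314 and CAG-475. Borkfalkia had no species name in any sample. The species entries thus repeat the genus entries read for read.

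**Figure D1:**
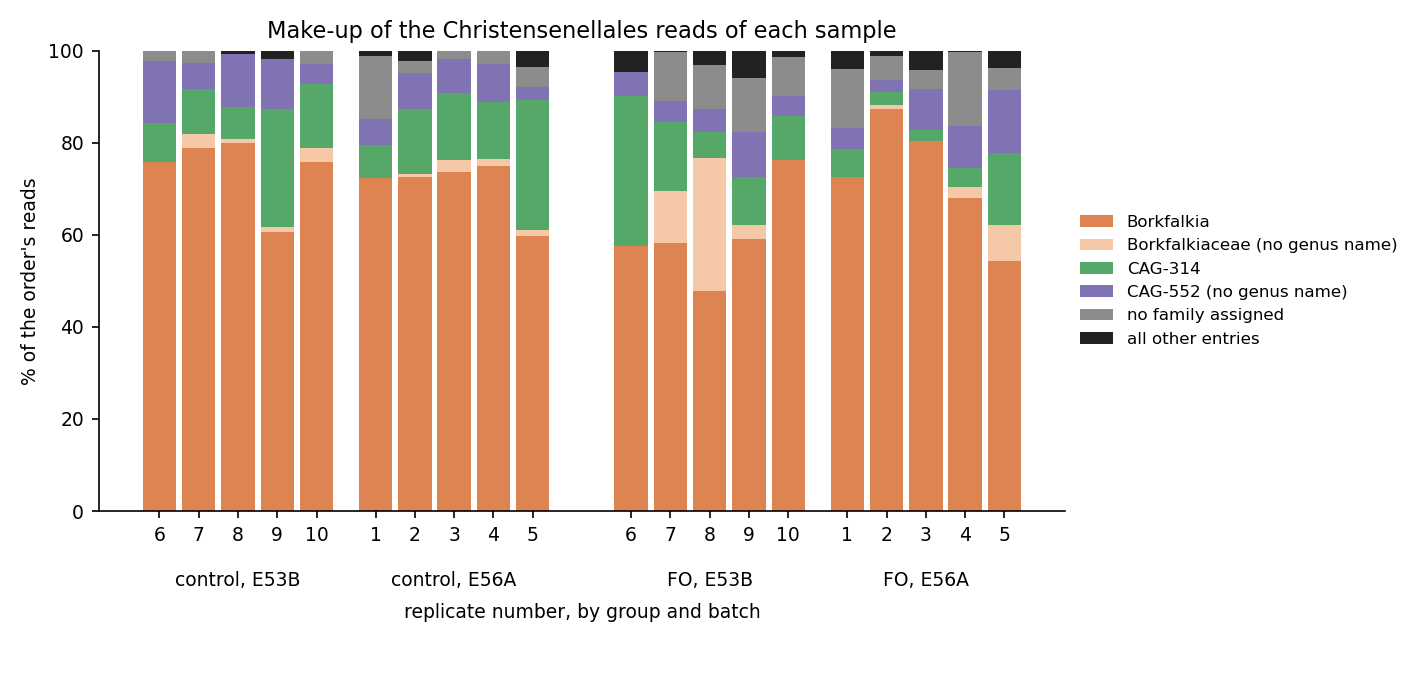
Percent of the Christensenellales reads of each sample (y axis) that fell in each genus entry, with samples ordered by group and batch and named by replicate number (x axis). Borkfalkia was the largest part of every bar, an entry of Borkfalkiaceae with no genus name reached 28.9% in FO replicate 8, and CAG-314 reached 32.6% in FO replicate 6.

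To determine how the order as a whole changed, its share of all reads was compared between groups. It ran from 0.506% over a median of 1.07% to 1.51% in control samples and from 0.701% over 2.39% to 4.60% in FO samples. The FO samples were more spread out, and 6 of 10 lay above every control sample, while the other 4, FO replicate 5 the lowest of them, lay within the control range. The mean difference of 1.34 percentage points (two-sided permutation test, p = 0.00151) serves here only as the base for what follows. As a centred log ratio, the order's log2 count less the mean over all orders, the difference was 0.30 and did not pass. Taken alone, batch E53B differed by 1.41 percentage points (p = 0.00794 by exact permutation of 5 against 5, which can give no smaller p) and batch E56A by 1.27 (p = 0.0714 by exact permutation).

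**Figure D2:**
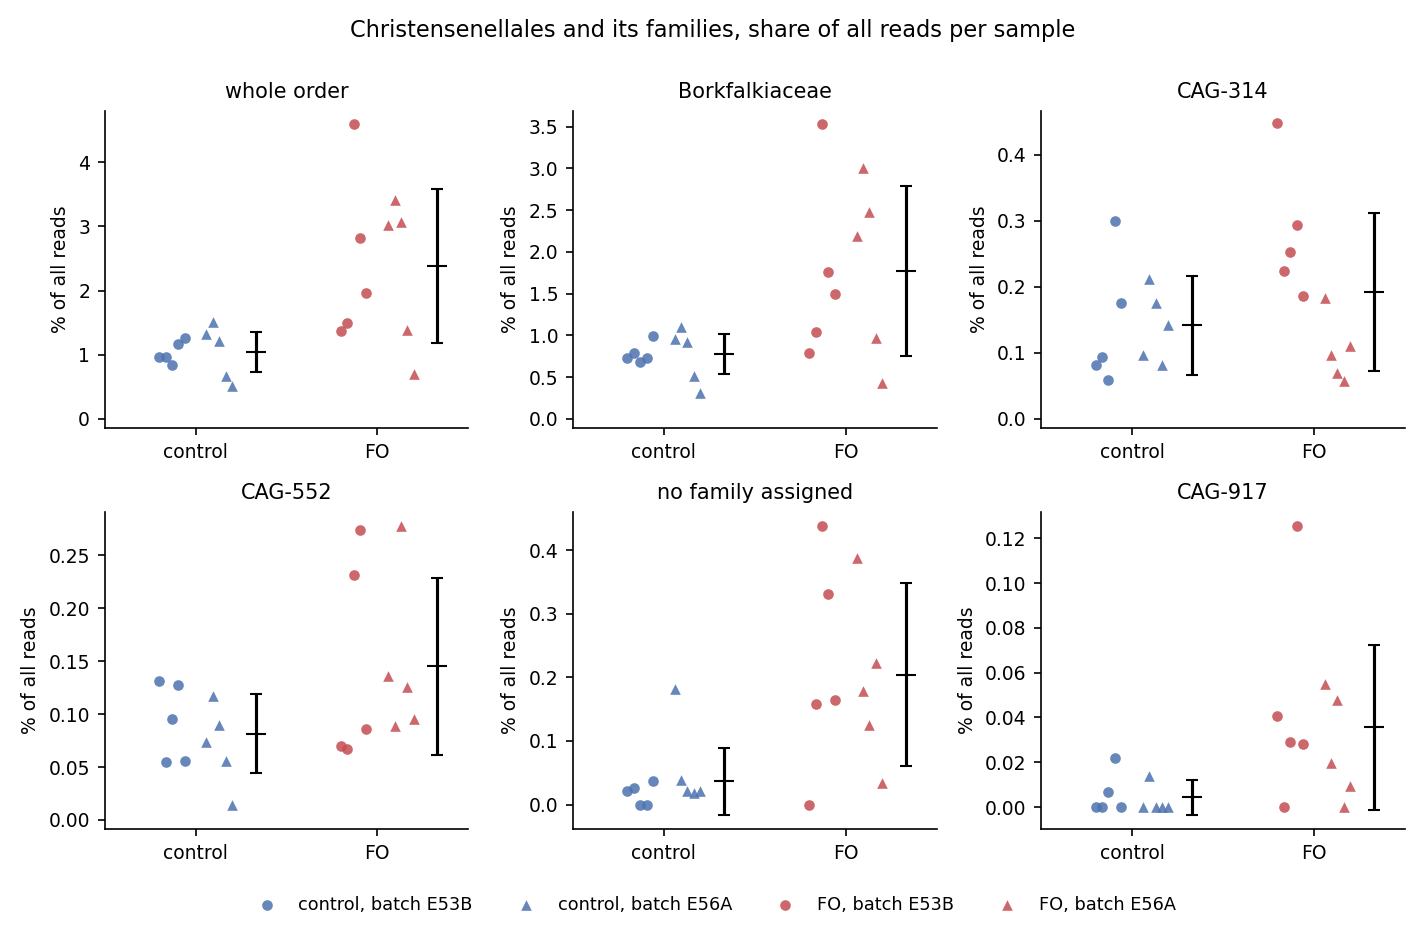
Percent of all reads (y axis, a separate scale in each panel) for the order and for 5 of its family entries in each sample, by group, with circles for batch E53B and triangles for batch E56A; bars give the mean ± SD of 10 samples. FO samples of the entry with no family assigned lay between 0% and 0.438%, against 0% to 0.0383% in all control samples but control replicate 1, at 0.182%.

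Against other orders of the same class no change passed the test. The log2 ratio of Christensenellales to Lachnospirales, an order of common gut fermenters that includes many butyrate producers, was -2.70 ± 0.63 (SD, n = 10) for control and -2.89 ± 0.84 (SD, n = 10) for FO samples. The difference of -0.18 ± 0.33 (SE) was within the spread between mice (permutation test, Benjamini-Hochberg adjusted over 4 ratios, p = 0.582). The ratio to Oscillospirales, which also holds butyrate producers such as Faecalibacterium, differed by -0.41 ± 0.46 (SE, adjusted p = 0.582), and that to all other Clostridia by -0.26 ± 0.36 (SE, adjusted p = 0.582). These values are too imprecise to show that the orders kept step exactly.

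Against Bacteroidales, the dominant order of these samples, which degrades complex polysaccharides, the ratio rose. Its mean in log2 was -6.43 ± 0.52 (SD, n = 10) in control and -4.99 ± 0.88 (SD, n = 10) in FO samples, a difference of 1.45 ± 0.32 (SE, permutation test, adjusted p = 0.0012). In 9 of 10 FO samples it was higher than in every control sample, and FO replicate 5 was the exception. The difference was 1.51 in batch E53B (exact permutation test, adjusted p = 0.0317) and 1.38 in batch E56A, where it did not pass (exact permutation test, adjusted p = 0.222). In batch E53B the ratio to Lachnospirales had the opposite sign, at 0.13, from that in batch E56A, at -0.50, and neither passed (exact permutation test, adjusted p = 0.849 and 0.524).

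**Figure D3:**
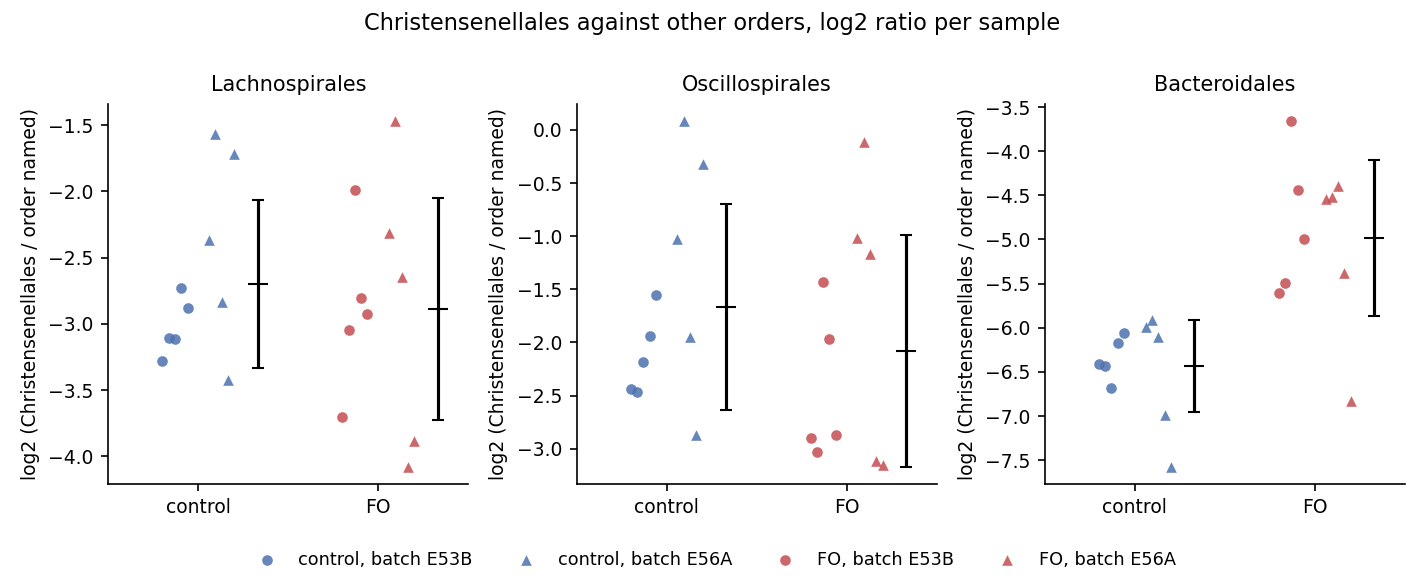
Log2 ratio of Christensenellales reads to those of 3 other orders (y axis, a separate scale in each panel) in each sample, by group and batch; bars give the mean ± SD of 10 samples. The groups overlap for Lachnospirales and Oscillospirales, while for Bacteroidales 9 of 10 FO samples lie above all control samples.

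The same contrast appeared in the count model, edgeR's quasi-likelihood test with batch as a term. Scaled by total counts, Christensenellales was 1.19 ± 0.32 higher in log2 with FO (SE, edgeR, adjusted p = 0.00204), one of 7 of 14 orders tested that were higher, or 50%. With TMM scaling, which sets each entry against the bulk of the others, its difference was -0.49 ± 0.30 (SE, edgeR, adjusted p = 0.347), and 1 of 14 orders, or 7.14%, passed in either direction. The other orders of Clostridia had 9 entries, 4 of which had enough reads to be tested. With TMM scaling 0 of these 4 passed in edgeR, and their median difference was -0.55. At an unadjusted p under 0.05 it was also 0 of these 4, against 1 of 14 orders. Under total counts 2 of 4 were higher, Lachnospirales by 1.20 and Oscillospirales by 1.35 in log2 (edgeR, adjusted p = 3.0e-05 and 8.2e-05), and the median of the 4 was 1.14.

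To determine which families of the order changed in abundance, all families were tested together in edgeR. A filter on low counts let 25 families through, of which 4 belong to the order, namely Borkfalkiaceae, CAG-552, CAG-314 and the reads with no family assigned. With TMM scaling 0 of these 4 passed, while 1 of 25, or 4%, did in the whole table. At an unadjusted p under 0.05 it was 2 of 4, against 5 of 25, or 20%. Neither DESeq2 nor limma on centred log ratios passed any of the 4, where 2 of 25, or 8%, and 1 of 25, or 4%, passed. Under total counts 2 of 4 passed, both higher with FO, where 14 of 25 families, or 56%, passed in either direction and 13 of 25, or 52%, were higher. The median difference over all families was -0.30 in log2 with TMM scaling and 1.03 under total counts, and over the 4 families of the order it was -0.26 and 1.02. On both scales the 4 families had a median close to that of the whole table.

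Borkfalkiaceae, the main family, made up 0.309% to 1.10% of reads in control samples, with a median of 0.762%, and 0.435% to 3.53% in FO samples, with a median of 1.62%. As for the order, 6 of 10 FO samples exceeded all control samples. Under total counts it was higher by 1.19 ± 0.34 in log2 (SE, edgeR, adjusted p = 0.00491), close to the 1.03 of the median family. With TMM scaling the difference was -0.12 ± 0.25 (SE, edgeR, adjusted p = 0.805), and its sign turned with DESeq2 size factors, to 0.15 (adjusted p = 0.828).

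CAG-552 ranged from 0.0146% to 0.131% of reads in control samples (median 0.0818%) and from 0.0666% to 0.278% in FO samples (median 0.11%). The groups overlapped, but 4 of 10 FO samples exceeded the highest control sample and 4 of 10 control samples were under the lowest FO sample. Its difference was 0.84 ± 0.41 in log2 under total counts (SE, edgeR, adjusted p = 0.0824) and -0.40 ± 0.33 with TMM scaling (SE, edgeR, adjusted p = 0.495).

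CAG-314 had the smallest log2 difference of the 4 entries under total counts. It made up 0.0593% to 0.299% in control samples (median 0.119%) and 0.0576% to 0.447% in FO samples (median 0.185%), and only 1 of 10 FO samples lay above the control range. Under total counts the difference was 0.26 ± 0.40 in log2 (SE, edgeR, adjusted p = 0.518). With TMM scaling it was -0.91 ± 0.44 (SE, edgeR, unadjusted p = 0.048, adjusted p = 0.240). On both scales CAG-314 lay below the median of all families.

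The reads with no family assigned had the largest log2 difference of the 4 entries on both scales, although Borkfalkiaceae, being more abundant, differed more in percentage points. They ran from 0% to 0.182% in control samples, with a median of 0.0217%, and from 0% to 0.438% in FO samples, with a median of 0.172%. All control samples but control replicate 1 lay at or below 0.0383%, and 4 of 10 FO samples exceeded every control sample. The lowest FO samples were FO replicate 5, at 0.0336%, and FO replicate 6, which had 0 reads. Under total counts the difference was 2.67 ± 0.74 in log2 (SE, edgeR, adjusted p = 0.0043). With TMM scaling it was 1.39 ± 0.66 (SE, edgeR, unadjusted p = 0.0452, adjusted p = 0.240).

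**Figure D4:**
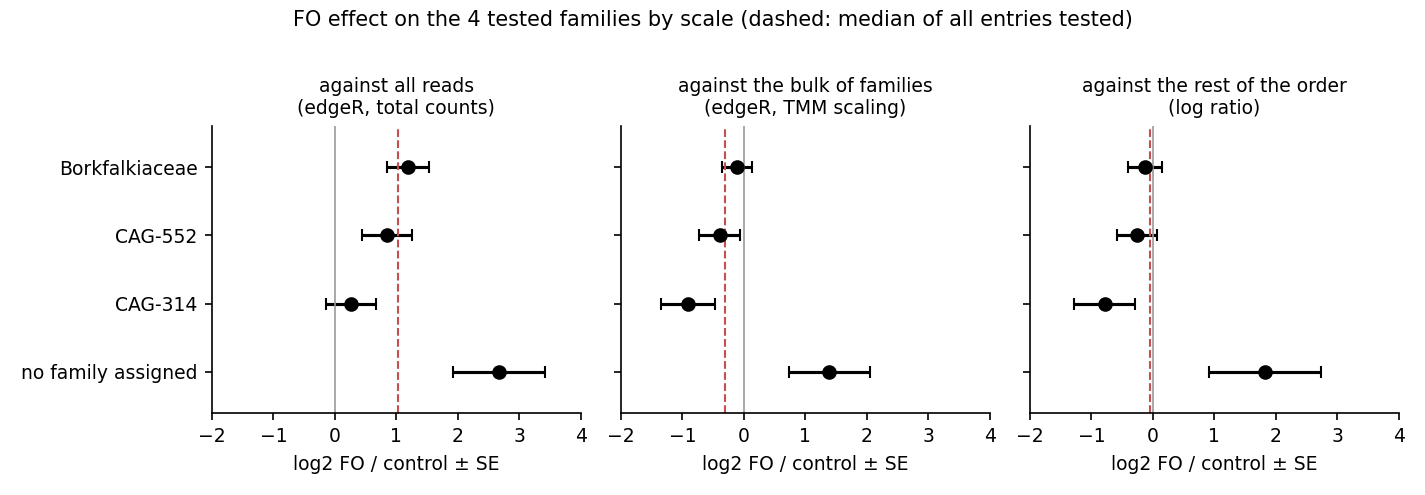
Log2 difference of FO over control ± SE (x axis) for the 4 tested family entries against all reads, against the bulk of families and against the rest of the order; dashed lines mark the median of all entries tested, 25 families in the left and middle panels and 12 in the right-hand panel. Borkfalkiaceae lay near the dashed line on each scale, at 1.19, -0.12 and -0.13, and the reads with no family assigned lay above it, at 2.67, 1.39 and 1.82.

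The 4 families that did not pass the filter were seen mainly in FO samples. CAG-917 had 19 reads over 3 of 10 control samples and 145 reads over 8 of 10 FO samples, and its highest values were 0.0217% in a control sample and 0.125% in FO replicate 9. If all samples were drawn down to 17218 reads, the expected number of samples with at least 1 such read would be 2.71 for control and 7.84 for FO. Without the filter its difference with TMM scaling was 1.95 ± 0.88 in log2 (SE, edgeR, adjusted p = 0.207). UBA1242 had 24 reads in 3 control samples and 142 reads in 6 FO samples, a difference of 1.67 ± 1.10 (SE, edgeR, adjusted p = 0.371). CAG-74 had 5 and 19 reads, and Christensenellaceae had 4 reads, all in FO replicate 6, where they were 0.0232% of the sample. None of the 4 passed without the filter, where 2 of 45 families did, both lower with FO.

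Genera were tested in the same way, and 59 passed the filter, among them Borkfalkia, CAG-552 with no genus name, CAG-314 and the reads with no family assigned. With TMM scaling 0 of these 4 passed in edgeR, 1 of 4 did at an unadjusted p under 0.05 and 1 of 4 did in DESeq2. Of all 59 genera, 13 or 22% passed in edgeR, 21 or 35.6% did unadjusted and 16 or 27.1% did in DESeq2. Under total counts 2 of 4 passed, both higher, where 29 of 59 genera, or 49.2%, passed in either direction and 25 of 59, or 42.4%, were higher. The median difference was 0.23 over all genera and 0.20 over the 4 entries with TMM scaling, and 0.99 and 0.95 under total counts.

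Borkfalkia differed by 0.33 ± 0.31 in log2 with TMM scaling (SE, edgeR, adjusted p = 0.507) and by 1.06 ± 0.33 under total counts (SE, edgeR, adjusted p = 0.00997). The reads with no family assigned, now set against genera, differed by 1.94 ± 0.72 (SE, edgeR, adjusted p = 0.0552), just outside the 5% threshold. They passed in DESeq2, at 1.80 (adjusted p = 0.0297), and in edgeR without control replicate 1, at 2.34 (adjusted p = 0.0305), without FO replicate 5, at 2.22 (adjusted p = 0.0409), without FO replicate 6, at 2.03 (adjusted p = 0.0303), and without control replicate 1 and FO replicate 5 together, at 2.53 (adjusted p = 0.015). Both of these samples lay on the side of the other group for this entry, so leaving them out had to raise the value, and it is given as a description. The other 17 of 20 fits that left out 1 sample did not pass, and over all 20 the value ran from 1.60 to 2.34 (edgeR, adjusted p = 0.0303 to 0.168). It passed under total counts, at 2.68 (edgeR, adjusted p = 0.00827). It did not pass with DESeq2 size factors in edgeR, at 1.78 (adjusted p = 0.0806), with limma, at 1.99 (adjusted p = 0.093), with no batch term, at 1.68 (edgeR, adjusted p = 0.0905), with no filter, at 1.94 (edgeR, adjusted p = 0.0911), or with the order's reads as the scale, at 1.52 (edgeR, adjusted p = 0.136). In batch E53B alone the value was 2.61 (edgeR, adjusted p = 0.105) and in batch E56A alone 1.29 (edgeR, adjusted p = 0.344).

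Some genus entries were too sparse or uneven for the filter. UBA1242 with no genus name had 0 reads over all control samples, and its FO reads were 24 in FO replicate 1, 19 in FO replicate 3, 48 in FO replicate 8 and 15 in FO replicate 9. The other 6 of 10 FO samples had 0 reads, as the control samples did. No fold is given for an entry seen in 4 samples only. Both batches had such reads, in 2 FO samples each. Without the filter this entry passed with TMM scaling (edgeR, adjusted p = 0.0313), where 6 of 149 genera, or 4.03%, were higher. The rest of UBA1242, which carried a genus name, had 24 control and 36 FO reads, all in batch E56A.

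The entry of Borkfalkiaceae with no genus name was uneven between mice. It had reads in 8 of 10 control samples, at 0.0389% or less, and 6 of 10 FO samples. In FO replicate 8 it held 545 reads, or 1.33% of the sample (95% Wilson interval 1.22% to 1.44%), while the other 9 FO samples had a mean of 0.0406% ± 0.057 (SD). Without the filter its difference was 1.77 ± 1.06 in log2 (SE, edgeR, adjusted p = 0.306).

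Species entries gave the same picture, since they hold the same reads. With TMM scaling 0 of 4 passed in edgeR, 1 of 4 did at an unadjusted p under 0.05 and 1 of 4 in DESeq2. In the whole table it was 17 of 71, or 23.9%, in edgeR, 23 or 32.4% unadjusted and 22 or 31% in DESeq2. Under total counts 2 of 4 passed, against 35 of 71, or 49.3%. The single species of CAG-314, CAG-314 sp900551395, differed by -0.50 ± 0.42 in log2 with TMM scaling (SE, edgeR, adjusted p = 0.417).

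To determine which families rose or fell against the order itself, each was set against the rest of the order's reads in the same sample. This ratio does not depend on what the other orders did. The test was run for every order with 2 or more families, and 4 of 12 family entries, or 33.3%, passed after adjustment over all of them, while 0 of the 4 Christensenellales entries did. With edgeR, using the order's reads as the scale, it was 0 of 4 adjusted and 1 of 4 unadjusted. Over all 12 entries it was 4, or 33.3%, and 6, or 50%.

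Borkfalkiaceae kept the largest part of the order, at 73.9% ± 7.19 (SD, n = 10) in control and 71.6% ± 9.3 (SD, n = 10) in FO samples, with ranges of 61.2% to 81.9% and 57.6% to 88.1%. Its log2 ratio to the rest differed by -0.13 ± 0.28 (SE, permutation test, adjusted p = 0.75). CAG-552 held 7.78% ± 3.35 (SD, n = 10) and 6.75% ± 3.41 (SD, n = 10), a difference of -0.26 ± 0.33 in the log2 ratio (SE, permutation test, adjusted p = 0.663). Neither family differed by more than the spread between mice.

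CAG-314 held 7.03% to 28.1% of the order in control samples, with a median of 13.1%, and 2.25% to 32.6% in FO samples, with a median of 7.80%. In 5 of 10 FO samples its part was below that of every control sample, and in FO replicate 6 it was above all of them. The log2 ratio differed by -0.79 ± 0.50 (SE, permutation test, unadjusted p = 0.131, adjusted p = 0.225).

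The reads with no family assigned took 3.29% ± 3.88 (SD, n = 10) of the order in control samples and 8.33% ± 4.81 (SD, n = 10) in FO samples. Their ranges were 0% to 13.7% and 0% to 16.1%, and only FO replicate 4, 1 of 10 in its group, went beyond the control range. On the log2 ratio 9 of 10 FO samples were higher than the control mean of -5.79, but so were the 8 of 10 control samples with reads. Control samples without reads, whose values the pseudocount set, pulled that mean down, so this count does not separate the groups. The difference in the log2 ratio was 1.82 ± 0.91 (SE, permutation test, unadjusted p = 0.0664, adjusted p = 0.133). Without FO replicate 6, whose 236 reads of the order held 0 of these, it was 2.37 and passed (permutation test, adjusted p = 0.00904). The other 19 of 20 fits that left out 1 sample did not pass, and the lowest value was 1.38, without control replicate 9 (permutation test, highest adjusted p of the 20 = 0.258). Compared as a percentage of the order, the difference of 5.04 percentage points had an adjusted p of 0.0516 (permutation test).

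At the genus rank 37 entries were tested within their orders and 4, or 10.8%, passed, 0 of them among 5 Christensenellales entries. With edgeR on the order's scale it was 0 of 5 adjusted and 1 of 5 unadjusted, the reads with no family assigned, against 4 of 37, or 10.8%, and 11 of 37, or 29.7%. Borkfalkia did not pass, with 72.4% ± 6.92 (SD, n = 10) of the order in control and 66.2% ± 12.7 (SD, n = 10) in FO samples, a difference of -0.36 ± 0.33 in the log2 ratio (SE, permutation test, adjusted p = 0.492). Below the range of the control samples lay 5 of 10 FO samples, and above it 2 of 10. The entry of Borkfalkiaceae with no genus name held 1.44% ± 1.14 (SD, n = 10) and 5.40% ± 9.1 (SD, n = 10), and 28.9% in FO replicate 8 (95% Wilson interval 26.9% to 30.9%). Its log2 ratio differed by -0.14 ± 1.34 (SE, permutation test, adjusted p = 0.915), the opposite sign from its mean percentage. Among species entries 7 of 45, or 15.6%, passed, and 0 of 5 of the order.

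To determine whether the 2 batches gave the same result, each was taken alone, and the difference between them was tested against all genera. Within the order the difference of CAG-314 was near 0 in batch E53B and negative in batch E56A, and after adjustment it passed in neither. In batch E53B its part of the order was 12.9% ± 7.47 (SD, n = 5) in control and 14.6% ± 10.6 (SD, n = 5) in FO samples, a difference of 0.11 in the log2 ratio (exact permutation test, p = 0.873). Its sign rested on single samples. Without FO replicate 6, at 32.6% of only 236 reads of the order, the FO mean was 10.1% ± 3.91 (SD, n = 4) and the difference -0.33, and it was also negative without control replicate 6, at -0.025, and without control replicate 8, at -0.09. These and the other values without 1 sample of a batch were computed after seeing the data and have no test. Batch E56A had 15.2% ± 7.72 (SD, n = 5) and 6.21% ± 5.52 (SD, n = 5), a difference of -1.68 (exact permutation test, unadjusted p = 0.0476, adjusted p = 0.190), and 4 of 5 FO samples lay below all control samples of that batch. With any 1 sample of batch E56A left out it ran from -2.14 to -1.37.

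The share of CAG-314 in all reads had a higher FO mean in batch E53B and a lower one in batch E56A. In batch E53B it was 0.142% ± 0.0981 (SD, n = 5) in control and 0.281% ± 0.101 (SD, n = 5) in FO samples, and in batch E56A 0.142% ± 0.0541 (SD, n = 5) and 0.103% ± 0.0493 (SD, n = 5). Against all genera with TMM scaling, the difference of the FO effect between batches was -1.48 ± 0.74 in log2 and did not pass (SE, edgeR interaction term, unadjusted p = 0.058, adjusted p = 0.466). Over all genera 0 of 59, or 0%, passed this test in edgeR, 6 did at an unadjusted p under 0.05, and 1 did in DESeq2. None of the 4 Christensenellales entries was below an unadjusted p of 0.05.

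Within the order, Borkfalkia was lower with FO in batch E53B and near the control level in batch E56A, and after adjustment it passed in neither. In batch E53B its part was 74.2% ± 7.82 (SD, n = 5) in control and 59.8% ± 10.2 (SD, n = 5) in FO samples, a difference of -0.96 in the log2 ratio (exact permutation test, unadjusted p = 0.0317, adjusted p = 0.147). In that batch the entry of Borkfalkiaceae with no genus name was at 1.60% ± 1.36 (SD, n = 5) and 8.66% ± 12.2 (SD, n = 5), and without FO replicate 8, at 28.9%, its FO mean was 3.61% ± 5.39 (SD, n = 4). In batch E56A Borkfalkia held 70.7% ± 6.21 (SD, n = 5) and 72.6% ± 12.6 (SD, n = 5), a difference of 0.24 (exact permutation test, adjusted p = 0.881). This turned to -0.08 without FO replicate 2, where Borkfalkia held 87.4%, and ran from 0.06 to 0.55 with any other sample of the batch left out. The difference between batches was not tested within the order. Against all genera with TMM scaling, the interaction term for Borkfalkia was 0.57 ± 0.62 (SE, edgeR, adjusted p = 0.840).

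The reads with no family assigned had a higher FO mean in both batches. Their part of the order was 1.56% ± 1.45 (SD, n = 5) in control and 8.05% ± 4.66 (SD, n = 5) in FO samples of batch E53B, and 5.01% ± 4.94 (SD, n = 5) and 8.61% ± 5.48 (SD, n = 5) in batch E56A. The interaction term, against all genera with TMM scaling, was -1.65 ± 1.35 in log2 (SE, edgeR, unadjusted p = 0.234, adjusted p = 0.717), of the same sign as that of CAG-314 and larger in size. The log2 ratio passed in neither batch (exact permutation test, adjusted p = 0.231 and 0.365). In batch E53B 4 of 5 FO samples lay above all control samples of the batch, and in batch E56A 1 of 5 did. The batch E56A count rested on control replicate 1, at 13.7%. Without it 4 of 5 FO samples lay above all control samples, the control mean was 2.84% ± 1.08 (SD, n = 4) and the log2 difference was 1.48 against 0.99 with it. Between batches at equal treatment, 7 of 59 genera, or 11.9%, differed, and 0 of the 4 Christensenellales entries did (edgeR). At an unadjusted p under 0.05 it was 15 of 59 genera and 0 of the 4.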

How the data were processed

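The V4 region of the 16S rRNA gene was amplified from stool DNA and read from both ends on a MiSeq. Per the labels' processing notes, bcl2fastq 2.2 and cutadapt were used. By the study's methods, QIIME2 was used to merge reads with vsearch, to filter them by quality and for chimeras, and to classify them against Greengenes2. The authors deposited whole-number read counts per taxon, not normalized. The order, family, genus and species tables were used here, and the phylum and class tables were not. Entries with a blank or missing name were kept as entries of their own, and all per-sample values were matched by label.

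Shares are percentages of all reads or of the order's reads. Log2 ratios used a pseudocount of 0.5. Group means were compared by two-sided permutation tests with 100000 resamples, or by exact enumeration within a batch. Within orders, entries with a mean of at least 1% of their order and 20 reads in all were tested, in orders with at least 10 reads in every sample. edgeR 4.0.16 (R 4.3.3) tested whole tables by quasi-likelihood, with filterByExpr, TMM scaling and batch as a term, at a 5% false discovery rate (Benjamini-Hochberg). Its SEs were derived from the F statistic and are approximate. DESeq2 1.42.0 and limma 3.58.1 were alternatives, as were total-count scaling, no filter, pseudocount 1, single batches and leaving out samples one by one. P-values reflect the spread between mice.

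Every family entry was named, as was every genus or species entry with at least 100 reads; the rest are given by their reads. The members and lists were chosen with earlier results of these data known. Counts were simulated for the genus comparison (20 runs, 12 genera with a 4-fold change, a median of 67 genera in the test). On them edgeR recovered 84.4% of the changed genera with 4.79% false and 0 wrong-sign calls, and made 0 calls on unchanged counts. The changed genera had passed the filter and were raised and lowered in equal numbers. Changes mostly in the same direction, as seen under total counts, were not simulated, so these runs do not test the choice of scaling. Other tools were matplotlib 3.10.9, scipy 1.17.1, pandas 2.3.3, numpy 2.4.6 and Python 3.11.15. Total reads of 17218 to 57415 per sample limit the precision of the rare entries.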

Additional observations from a re-analysis of the deposited data

Results flagged for a closer look

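Of 26 sets of 10 samples checked for a value far from the other 9, 7 held one. Among independent sets of normally distributed values about 1 in 20, or 1.3, would be flagged. These sets are not independent, since all entries but the whole order were checked against all reads and against the order. Several are also skewed by samples without reads, so 1.3 is not a valid chance rate for them. In FO replicate 8, Borkfalkiaceae with no genus name made up 1.33% of all reads, against 0.17% or less in the other FO samples, and 28.9% of the order, against 11.4% or less. In control replicate 1, the reads with no family assigned were 0.182% of all reads, against 0.0383% or less in the other control samples, and 13.7% of the order, against 4.32% or less. CAG-314 was 32.6% of the order in FO replicate 6, the sample with the fewest reads, against 15.7% or less in the other FO samples. CAG-917 was 0.125% of reads in FO replicate 9, against 0.0551% or less, and 1.85% of the order in control replicate 9, against 0.925% or less, which rested on 8 reads.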

How the results depend on the processing

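The order's share stayed higher with FO in all 20 fits that left out 1 sample, by 1.09 to 1.53 percentage points, and its ratio to Bacteroidales by 1.30 to 1.65 in log2, and all of these passed. In batch E56A alone neither passed, at 1.27 percentage points and 1.38, nor did the centred log ratio over orders, at 0.30, and in batch E53B the ratio to Lachnospirales turned to 0.13. Families past the threshold in edgeR numbered 1, against 14 under total counts, 2 without a filter or with DESeq2, 3 in batch E53B, 0 in batch E56A, 4 with each order's own reads as the scale and 1 to 2 with 1 sample left out. Genera numbered 13, against 29, 0 in batch E56A, 4 on the order's scale and 6 to 18 with 1 sample left out, the fewest without control replicate 8. Species entries numbered 17, against 35 under total counts and 0 in batch E56A. Orders numbered 1, against 8 under total counts. Within orders, 0 entries passed in batch E56A at the family and genus ranks, and 0 genera and 0 species entries passed among those of at least 5% of their order. The 4 genera became 7 without control replicate 1 and FO replicate 5, a pair chosen with earlier results known, 1 as percentages and 1 to 5 with 1 sample left out. The batch interaction gave 1 genus with DESeq2, and the batch term 1 under total counts or in control samples alone. The causes were not tested.

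Signs turned for differences that had not passed. Borkfalkiaceae among families was 1.19 under total counts (passing), 0.15 with DESeq2 size factors, without a filter or with DESeq2, 0.25 in batch E56A and -0.28 to 0.16 with 1 sample left out, and within the order 0.28 in batch E56A and 0.25 with unassigned reads left out, the last an alternative chosen after seeing the data. CAG-552 was 0.84 under total counts and 0.11 in batch E56A, and 0.15 within the order there. CAG-314 was 0.26 under total counts, and 0.11 within the order in batch E53B. Borkfalkia was -0.14 in batch E53B and on the order's scale, and 0.24 within the order in batch E56A. Borkfalkiaceae with no genus name, within the order, was 0.74 in batch E53B, 3.96 as percentage points and -0.76 to 0.39 with 1 sample left out. No paired analysis was possible because replicate numbers were given in the order of the samples and pair no mice.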
